A study of Mus musculus with 10 samples.

Results

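Matrix metalloproteinases (MMPs), proteases of the ADAMTS family (a disintegrin and metalloproteinase with thrombospondin motifs), the ADAMTS-like proteins and the tissue inhibitors of metalloproteinases (TIMPs) were followed in mammary tumours of 2 mouse genotypes. Genes were taken by symbol (Mmp, Adamts, Adamtsl or Timp followed by a number), with 1 matching gene left out by the rule, which gave 50 of the 26063 genes in the table. RNA was measured by bulk sequencing in 10 tumours of female FVB/N animals. The genotype label reads EIC/WT for 5 of them (EIC below) and 16IC/WT for the other 5 (16IC below). Doxycycline (2 mg/ml) was given to every animal of both groups, and tumours were collected at end point and flash frozen. The labels spell out neither genotype name and give neither a promoter that drives an introduced gene nor the ages of the mice; the title of the series speaks of ENPP1, a variant of HER2 and a microenvironment poor in immune cells. Each tumour carries an animal name of its own, and tumour numbers, such as EIC 1, serve as names alone.

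MMPs and ADAMTS proteases are zinc enzymes that cut collagens, proteoglycans and other proteins of the extracellular matrix. Most are secreted as inactive precursors and need a cut to become active, and the TIMPs bind the active site and block it. ADAMTS-like proteins have the ancillary domains of the ADAMTS family without the protease domain. In mammary tumours these genes are known to be expressed by tumour cells, fibroblasts, pericytes and macrophages, so a level in a bulk sample sums over cell types, and fewer cells of a type cannot be told apart from less RNA per cell.

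All 50 genes had at least 1 count, and 37 had enough counts to be tested. Genotypes were compared with edgeR's quasi-likelihood test on the raw counts over 14915 genes with Benjamini-Hochberg adjustment. Levels are counts scaled to library size (CPM, scaled by TMM, which evens out library composition) and differences are log2 of 16IC over EIC. Of the 37 tested genes, 29 were lower and 8 higher in 16IC, with a median log2 difference of -0.75, beside -0.02 over all genes tested, of which 52.3% lay below 0. No gene passed edgeR's adjusted threshold of 0.05, neither among these 37 nor among all genes (0%). At an unadjusted p under 0.05 edgeR picked 10 of the 37, all lower in 16IC, while it picked 13.1% of all genes, 6.29% as lower and 6.84% as higher. DESeq2, run on the same counts as another test, called 8 of the 40 genes for which it gave an adjusted p, all lower in 16IC, beside 2.11% of all genes (1.27% as lower) and 2.05% of the genes that edgeR also tested. The values of the 5 EIC tumours all lay above those of the 5 16IC tumours in 2 of the 37, Adamts1 and Adamts6, and groups did not overlap for 2.58% of all genes tested (1.19% as lower). The 8 DESeq2 calls were Adamts4, Adamts1, Adamts14, Adamts6, Mmp13, Mmp10, Mmp9 and Timp1. Adamts4 and Adamts1 stayed called whichever of the 10 tumours was left out, and the other 6 did not.

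**Figure D1:**
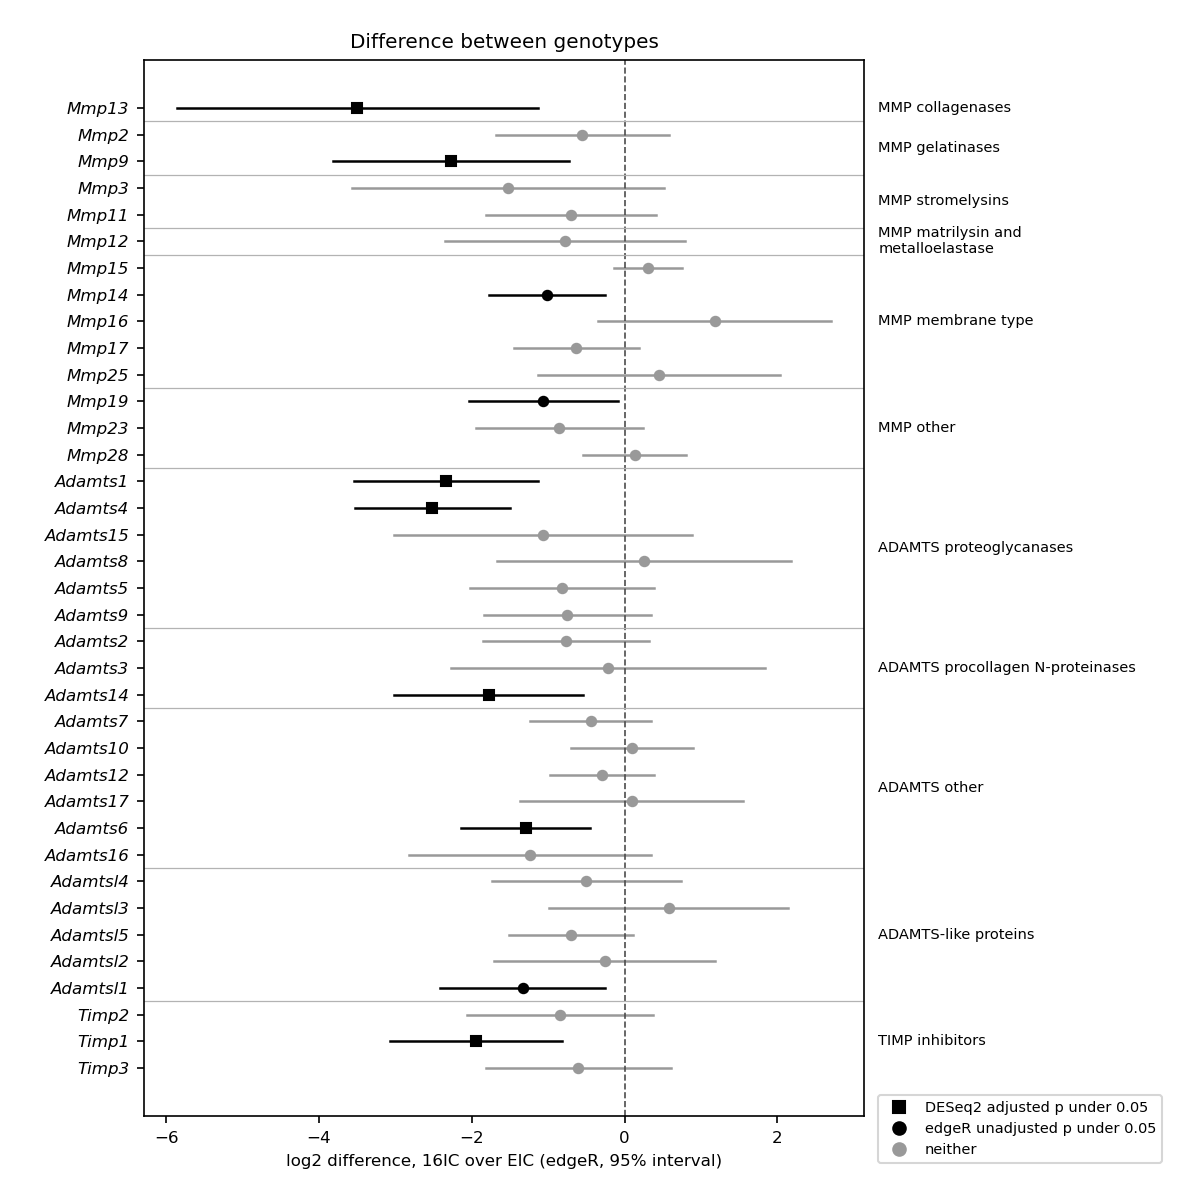
Log2 difference of 16IC over EIC for the 37 tested genes, grouped by role, as edgeR estimates with 95% intervals (horizontal lines). Black marks an unadjusted edgeR p under 0.05 and a square a DESeq2 adjusted p under 0.05; the estimate lies left of 0 for 29 genes, among them all 10 in black.

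Depth ran from 14813940 to 16947400 counts per tumour, so 3 counts, the limit that a count of 0 allows, correspond to 0.177 to 0.203 CPM; this covers counting error only. Of 6 markers of luminal mammary epithelium, Krt8, Krt18, Epcam, Cdh1 and Elf5 were abundant in every tumour, while Krt19 was near 0 in 4 of them (2.79 CPM in EIC 2, 3.53 in 16IC 1, 3.04 in 16IC 3 and 0 in 16IC 4); the 6 together summed to 3612 to 5883 CPM in EIC and 3723 to 5263 CPM in 16IC. Fibroblast markers (9 of 9 genes with counts, none at 0 in any tumour) summed to 1488 to 5488 CPM in EIC and 305 to 2983 CPM in 16IC, lowest in 16IC 3 and highest in EIC 1. Pericyte and smooth muscle markers (7 of 7, none at 0) summed to 176.6 to 314 CPM in EIC and 86.5 to 176.2 CPM in 16IC. Des made up most of this sum in EIC 2 (192 CPM), the tumour in which skeletal muscle markers were highest too. Rgs5 alone of these markers had a higher mean in 16IC (60.9 CPM, beside 51.4 CPM in EIC). Macrophage markers (9 of 9, none at 0) summed to 455 to 1137 CPM and 325 to 886 CPM, and endothelial markers (7 of 7, none at 0) to 128 to 209 CPM and 68.3 to 198 CPM. Basal epithelium markers (5 of 5) summed to 4.4 to 590 CPM in EIC (median 119) and 3.08 to 129 CPM in 16IC (median 14.4). Within EIC, Krt14 ran from 0.416 CPM (EIC 2) up to 466 CPM (EIC 1) around a mean of 142 CPM. Its 16IC mean was 4.09 CPM. Oxtr alone of the basal markers went the other way. Its mean was 32.9 CPM for 16IC, highest in 16IC 5 (106 CPM), beside 21.4 CPM for EIC. Krt5 and Krt17 were at 0 in 16IC 4 and Krt14 in 16IC 3. Mast cell markers (6 of 6) summed to 4.25 to 22.8 CPM (median 14.6) and 0.182 to 15.2 CPM (median 2.45), with Fcer1a at 0 in 5 tumours, Cpa3 and Cma1 in 16IC 3 and Tpsb2 in 16IC 1. Adipocyte markers (5 of 5) summed to 21.2 to 219.8 CPM (median 119.8) and 10.6 to 219 CPM (median 38.9), with Plin1 and Lep at 0 in 16IC 3 and 16IC 4, Adipoq in 16IC 4 and Cidec in 16IC 3. Skeletal muscle markers (5 of 5) summed to 2.22 to 2119.8 CPM (median 272) and 0.973 to 308 CPM (median 20.6), with Myh4 at 0 in EIC 3 and 16IC 3. Several of these sums reached lower values in 16IC, and their part in the results was not tested.

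Levels of different genes were compared as the authors' FPKM values, which are per length of transcript. Mean FPKM over the 10 tumours was at least 1 for 26 of the 50 genes, at least 10 for 5 and under 0.1 for 10. The 5 highest were Mmp15 with 61.1 ± 14.8 FPKM (SD, n = 10), Mmp14 with 48.4 ± 24.5, Timp2 with 42.8 ± 27.9, Mmp2 with 29 ± 19.1 and Timp1 with 27.1 ± 25.1, and together they held 67.4% of the summed FPKM of all 50. Among these 5, the means of neighbours in the order lay within an SD of each other. Differences between genes within the same tumour were not tested. The most abundant ADAMTS protease was Adamts1 with 9.57 ± 7.95 FPKM. The plot of levels by tumour gives the other tested genes.

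**Figure D2:**
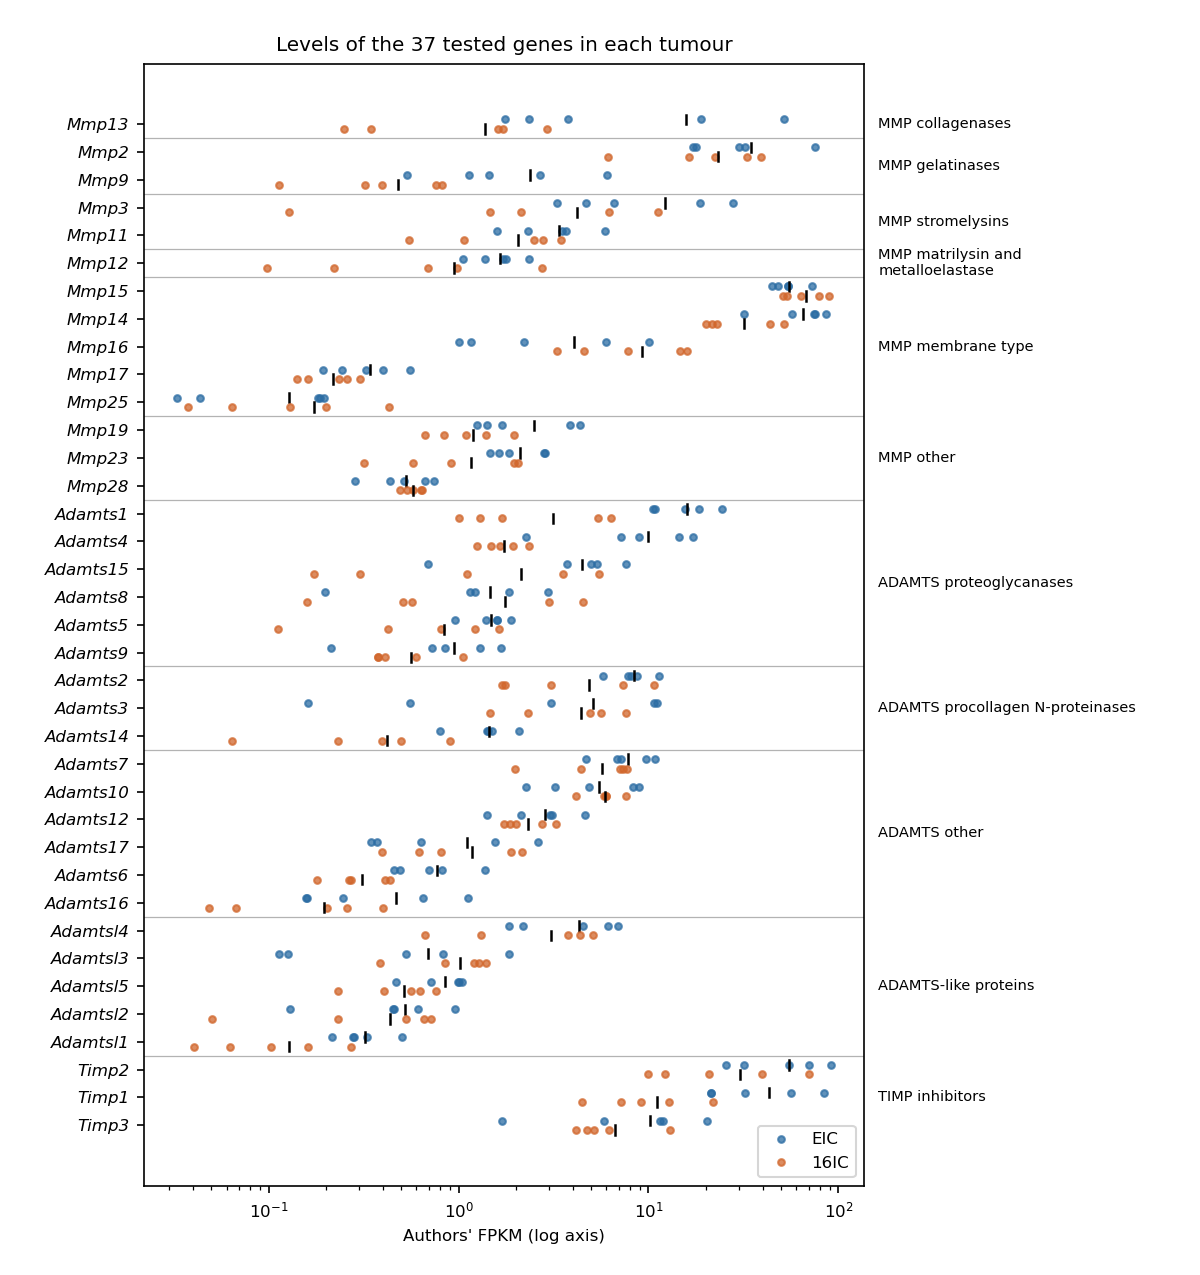
FPKM (log axis) of the 37 tested genes in each of the 5 EIC (blue) and 5 16IC (orange) tumours; black ticks mark the mean of each group. Mmp15, Mmp14, Timp2, Mmp2 and Timp1 have the highest means, and the points of both groups overlap for all but Adamts1 and Adamts6.

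The ADAMTS proteoglycanases, which cut versican and aggrecan in the matrix, held Adamts4 and Adamts1, the genes that DESeq2 called in every fit. Of the 7 genes, 6 were tested and 5 were lower in 16IC. Of the 6 tested, 2 had an unadjusted p under 0.05, both lower in 16IC, beside 6.29% of all genes tested that were lower at that p. Adamts4, also known as aggrecanase-1 (ENSMUSG00000006403, plus strand of chromosome 1, 171250421 to 171260637 on GRCm38), stood at 42.9, 11.3, 35.5, 72.3 and 84.6 CPM in EIC 1 to EIC 5 and at 8.07, 11.8, 6.39, 7.34 and 9.5 CPM in 16IC 1 to 16IC 5. The 4 other EIC tumours lay above every 16IC tumour, while EIC 2 lay just below 16IC 2. The group means were 49.3 ± 29.3 CPM in the EIC tumours and 8.62 ± 2.12 CPM in the 16IC tumours (SD, n = 5 each), a log2 difference of -2.51 (SE 0.46, 95% interval -3.53 to -1.5). The adjusted p was 0.154 by edgeR and 3.53e-05 by DESeq2. Without EIC 2, the low EIC tumour, edgeR's adjusted p was 0.0254 at a log2 difference of -2.76. The 16IC tumours were close together, within 6.39 to 11.8 CPM, and the spread lay in EIC.

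Adamts1, a protease of versican and aggrecan with known roles in ovulation and in blood vessels (ENSMUSG00000022893, minus strand of chromosome 16, 85793827 to 85803113), stood at 56.7, 85.2, 134, 102 and 58.9 CPM in EIC 1 to EIC 5, and at 9.08, 30.2, 5.66, 7.13 and 34.4 CPM in 16IC 1 to 16IC 5. The groups did not overlap. EIC 3 was the highest, and 16IC 2 and 16IC 5 lay above the other three 16IC tumours. With 87.3 ± 32.1 CPM in the EIC tumours and 17.3 ± 13.8 CPM in the 16IC tumours (SD, n = 5 each), the log2 difference was -2.33 (SE 0.54, 95% interval -3.54 to -1.13), with an adjusted p of 0.249 by edgeR and 0.00176 by DESeq2. Its neighbour Adamts5, aggrecanase-2, lies 53.059 kb away on the same strand and stood at 16.5 ± 3.86 CPM in the EIC tumours and 9.32 ± 6.71 CPM in the 16IC tumours (SD, n = 5 each), with a log2 difference of -0.82 (SE 0.54, 95% interval -2.03 to 0.38). Among the other tested members of the group, Adamts15 had 47.7 ± 27.3 CPM in the EIC tumours and 22.7 ± 24.5 CPM in the 16IC tumours (SD, n = 5 each) and Adamts9 14.7 ± 8.65 CPM in the EIC tumours and 8.76 ± 4.4 CPM in the 16IC tumours (SD, n = 5 each). Adamts8, which lies 20.109 kb from Adamts15, was the one with a higher mean in 16IC, 6.97 ± 4.81 CPM in the EIC tumours and 8.32 ± 9.05 CPM in the 16IC tumours (SD, n = 5 each); a gene on the opposite strand overlaps 10.6% of its exon bases, so its counts are uncertain.

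Versican, encoded by Vcan, is a substrate of these enzymes and was measured in the same tumours. Its level was 135, 124, 446, 95.2 and 60.2 CPM in EIC 1 to EIC 5, and 43.6, 34.9, 10.5, 16.9 and 36.9 CPM in 16IC 1 to 16IC 5. The groups did not overlap, and EIC 3 was the highest, as for Adamts1. The log2 difference of Vcan was -2.59 (SE 0.59, 95% interval -3.89 to -1.29), with an adjusted p of 0.249 by edgeR and 8.78e-04 by DESeq2, which called it whichever tumour was left out. Without EIC 3 the log2 difference of Vcan was -1.87. Aggrecan (Acan) had enough counts in too few tumours to pass edgeR's filter. It stood at 31.5, 12.9, 1.98, 5.25 and 0 CPM in EIC 1 to EIC 5, and at most 0.235 CPM in 16IC. EIC 5 had no count of Acan, so the groups overlapped. DESeq2 called Acan (adjusted p = 0.00162), and edgeR without a filter on counts gave an adjusted p of 0.317; Acan was singled out after its values were seen. Cells that make cartilage are the known main source of aggrecan, and 5 of 6 markers of bone and cartilage were in the table. Their sum, 28.2 to 155 CPM in EIC and 10.8 to 251 CPM in 16IC, was mostly Alpl, and Ibsp was at 0 in 8 tumours and Sp7 in 16IC 4. The cartilage collagen gene Col2a1 had a mean of 5.37 CPM in EIC and 2.54 CPM in 16IC. It was highest in EIC 1 (15 CPM), where Acan was highest too, and next in 16IC 3 (7.12 CPM), which had no count of Acan. Col10a1 had means of 4.9 and 1.14 CPM and was highest in EIC 2 (9.27 CPM). The part of these markers in the Acan difference was not tested.

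The procollagen N-proteinases, which remove the amino-terminal propeptide of fibrillar collagens, were all tested and all 3 had lower means in 16IC. Adamts14 (chromosome 10, 61197112 to 61273438) stood at 7.42, 7.66, 8.09, 11.2 and 4.28 CPM in EIC 1 to EIC 5, and at 2.09, 4.88, 1.28, 0.343 and 2.64 CPM in 16IC 1 to 16IC 5. EIC 5 was the lowest EIC tumour and lay below 16IC 2, the highest of its group. The log2 difference was -1.78 (SE 0.56, 95% interval -3.01 to -0.54), with an adjusted p of 0.29 by edgeR and 0.0414 by DESeq2. DESeq2 no longer called it when EIC 1, EIC 3, EIC 4, 16IC 1 or 16IC 3 was left out, with adjusted p-values up to 0.154. Adamts2, the most abundant of the group by FPKM, stood at 107, 55.5, 84.4, 78.9 and 74.8 CPM in EIC 1 to EIC 5, and at 29, 71.2, 16.7, 16.9 and 101 CPM in 16IC 1 to 16IC 5. Its groups overlapped, since 16IC 2 and 16IC 5 reached the EIC levels, and the log2 difference was -0.77 (SE 0.49, 95% interval -1.85 to 0.32) (edgeR adjusted p = 0.504). Adamts3, which also processes the growth factor VEGFC, varied widely within EIC, from 0.903 CPM in EIC 5 to 62.6 CPM in EIC 3, and its means were 28.8 ± 30.4 CPM in the EIC tumours and 24.8 ± 14.4 CPM in the 16IC tumours (SD, n = 5 each).

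Of the 9 other ADAMTS proteases, 6 were tested and 1 had an unadjusted p under 0.05, beside 13.1% of all genes tested. Adamts6, a protease linked to fibrillin microfibrils (chromosome 13, 104287835 to 104496695), stood at 5.51, 11.2, 3.95, 6.63 and 3.67 CPM in EIC 1 to EIC 5, and at 2.09, 3.33, 2.25, 1.44 and 3.46 CPM in 16IC 1 to 16IC 5. The groups did not overlap, but the lowest EIC tumour, EIC 5, and the highest 16IC tumour, 16IC 5, were close. The log2 difference was -1.29 (SE 0.38, 95% interval -2.14 to -0.45), with an adjusted p of 0.288 by edgeR and 0.0432 by DESeq2. DESeq2's call was lost in 6 of the 10 fits that left out a tumour (EIC 1, EIC 2, EIC 4, 16IC 1, 16IC 3 or 16IC 4), with adjusted p-values up to 0.158. The most abundant by FPKM was Adamts7, which cuts cartilage oligomeric matrix protein, with 68.4, 30.6, 44.1, 63.1 and 46.5 CPM in EIC 1 to EIC 5, and 28, 46.6, 49.1, 12.9 and 49.2 CPM in 16IC 1 to 16IC 5. Its groups overlapped widely, with 16IC 4 the lowest of all 10 tumours, and the log2 difference was -0.44 (SE 0.36, 95% interval -1.23 to 0.35). Adamts10, Adamts12, Adamts16 and Adamts17 had log2 differences from -1.23 to 0.10, none with an unadjusted p under 0.05. Adamts13, which cuts von Willebrand factor, Adamts18 and Adamts19 were below the filter. Adamts19 had 3, 9, 4, 3 and 6 counts in EIC 1 to EIC 5, and 1, 0, 0, 1 and 0 counts in 16IC 1 to 16IC 5. These few counts did not overlap; DESeq2 gave it no adjusted p.

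The ADAMTS-like proteins, several of which bind fibrillin, were all tested, 4 of the 5 with a lower mean in 16IC. Adamtsl1, known as punctin, stood at 6.43, 2.85, 4.37, 3.75 and 3.67 CPM in EIC 1 to EIC 5, and at 2.09, 1.37, 0.547, 0.823 and 3.52 CPM in 16IC 1 to 16IC 5. Its highest 16IC tumour, 16IC 5, reached into the EIC range, and the log2 difference was -1.33 (SE 0.49, 95% interval -2.41 to -0.25) (adjusted p = 0.319 by edgeR and 0.116 by DESeq2). Adamtsl4, the most abundant by FPKM, stood at 29.3, 8.02, 9.47, 19.8 and 26.6 CPM in EIC 1 to EIC 5, and at 18.7, 16.6, 2.98, 5.69 and 21.9 CPM in 16IC 1 to 16IC 5. Both groups held high and low tumours, with 16IC 3 the lowest, and the log2 difference was -0.50 (SE 0.56, 95% interval -1.73 to 0.73). Adamtsl2, Adamtsl3 and Adamtsl5 had log2 differences from -0.70 to 0.58.

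**Figure D3:**
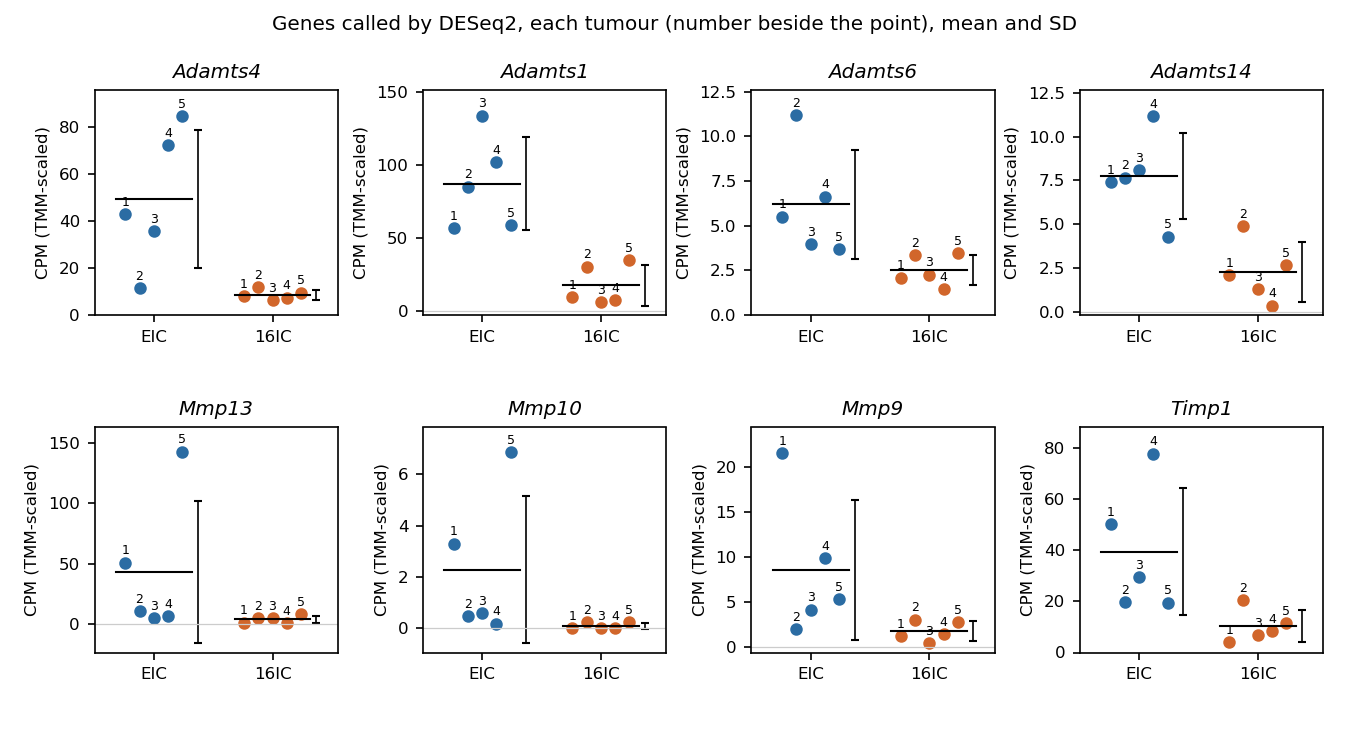
CPM (TMM-scaled, linear axes) of the 8 genes called by DESeq2 in each tumour (points, numbered within the group), with the mean (horizontal line) and SD (bar) of the 5 tumours. In Adamts1 and Adamts6 every EIC point lies above every 16IC point; for Mmp13 and Mmp10 the EIC mean is set by EIC 1 and EIC 5.

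Among the MMPs, 9 genes lie in 427.072 kb of chromosome 9 (7272514 to 7699585 on GRCm38): Mmp13, Mmp12, Mmp1b, Mmp3, Mmp1a, Mmp10, Mmp27, Mmp20 and Mmp7. They include the collagenases and stromelysins, which are known as targets of the transcription factor AP-1. Promoters, here the 250 bases before the start of a transcript in RefSeq's annotation of GRCm38.p6, were given for 35 of the 50 genes, and of the genes called by DESeq2 not for Adamts4, Adamts6 and Mmp9. The AP-1 motif TGANTCA, which reads the same on both strands, stood in a promoter of 8 of the 9 cluster genes (all but Mmp27), in 0 of the 26 other genes and in a promoter of 7.82% of all 27025 genes given (6.75% of 32851 promoters). A TATA box, searched as TATAAA on both strands (TTTATA on the other), stood in 7 of the 9, in 3 of the 26 (Adamtsl2, Mmp21 and Adamts1) and in 14.3% of all genes given (12.4% of promoters). The motifs do not overlap each other. The promoters of Mmp13, Mmp3 and Mmp10, whose levels shared a pattern across tumours, are shown with that of Mmp12, a cluster gene that did not share it, and of Adamts1, which lies outside the cluster and has a TATA box. Mmp12 has another promoter in RefSeq (chr9:7344147-7344396), at the start of the gene, which holds neither motif and is not printed. Capitals mark the motifs.
Mmp13 (chr9:7272264-7272513, plus strand): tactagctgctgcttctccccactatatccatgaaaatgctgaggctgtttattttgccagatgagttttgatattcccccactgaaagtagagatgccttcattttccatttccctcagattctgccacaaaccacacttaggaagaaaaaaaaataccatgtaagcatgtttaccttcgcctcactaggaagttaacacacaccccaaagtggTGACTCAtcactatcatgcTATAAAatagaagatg
Mmp3 (chr9:7445572-7445821, plus strand): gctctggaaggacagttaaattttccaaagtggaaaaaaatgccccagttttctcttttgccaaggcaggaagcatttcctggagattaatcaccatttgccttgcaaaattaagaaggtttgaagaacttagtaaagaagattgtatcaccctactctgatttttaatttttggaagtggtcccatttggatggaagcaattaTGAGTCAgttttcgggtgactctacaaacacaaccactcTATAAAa
Mmp10 (chr9:7502092-7502341, plus strand): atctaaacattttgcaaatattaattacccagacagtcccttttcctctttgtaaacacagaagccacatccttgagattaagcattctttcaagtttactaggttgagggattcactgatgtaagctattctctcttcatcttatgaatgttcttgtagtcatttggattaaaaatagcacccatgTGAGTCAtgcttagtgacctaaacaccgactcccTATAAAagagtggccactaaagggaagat
Mmp12 (chr9:7347124-7347373, plus strand): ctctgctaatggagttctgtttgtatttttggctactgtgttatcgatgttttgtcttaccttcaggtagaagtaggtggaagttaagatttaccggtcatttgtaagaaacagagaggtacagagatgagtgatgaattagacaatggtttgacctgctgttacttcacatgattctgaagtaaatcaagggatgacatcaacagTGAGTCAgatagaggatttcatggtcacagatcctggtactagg
Adamts1 (chr16:85803114-85803363, minus strand): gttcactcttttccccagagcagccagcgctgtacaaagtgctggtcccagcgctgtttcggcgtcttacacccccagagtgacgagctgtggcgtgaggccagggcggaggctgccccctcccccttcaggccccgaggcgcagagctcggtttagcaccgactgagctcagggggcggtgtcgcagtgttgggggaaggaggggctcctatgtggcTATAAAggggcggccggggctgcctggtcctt

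In Mmp13 the AP-1 motif lies 35 to 29 bases before the start, in Mmp3 46 to 40, in Mmp10 63 to 57 and in this promoter of Mmp12 44 to 38. Mmp3 and Mmp10, the stromelysins 1 and 2, and Mmp12 carry TGAGTCA, and Mmp13 carries TGACTCA. A match is a description of these letters and not a measured site of binding.

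Of the cluster, 3 genes were tested. Mmp13, also known as collagenase 3 (ENSMUSG00000050578, plus strand, 7272514 to 7283331), cuts fibrillar collagen and stood at 50.8, 10.5, 4.85, 6.56 and 143 CPM in EIC 1 to EIC 5, and at 0.937, 4.52, 4.87, 0.686 and 7.97 CPM in 16IC 1 to 16IC 5. EIC 5 and EIC 1 stood far above the other 8 tumours, and EIC 3 and EIC 4 lay within the range of 16IC. The means were 43.1 ± 58.9 CPM in the EIC tumours and 3.8 ± 3.04 CPM in the 16IC tumours (SD, n = 5 each), and the log2 difference was -3.50 (SE 1.07, 95% interval -5.86 to -1.13). The adjusted p was 0.288 by edgeR and 0.00922 by DESeq2. Without EIC 5 the log2 difference was -2.25 and DESeq2's adjusted p 0.134, and without EIC 1 DESeq2 gave none.

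Mmp10 (ENSMUSG00000047562, plus strand, 7502352 to 7510240), stromelysin 2, was below edgeR's filter with 192 counts in EIC and 8 in 16IC. It stood at 3.3, 0.475, 0.599, 0.188 and 6.87 CPM in EIC 1 to EIC 5, and at 0, 0.238, 0, 0 and 0.235 CPM in 16IC 1 to 16IC 5. EIC 5 and EIC 1 were again the highest, and EIC 4 lay below 2 of the 16IC tumours. DESeq2's log2 difference was -4.58 with an adjusted p of 0.0111. Without EIC 5 the DESeq2 log2 difference was -3.57 and the call was lost (adjusted p = 0.120), and DESeq2 gave no adjusted p without EIC 1. With no filter on counts edgeR gave a log2 difference of -4.44 and an adjusted p of 0.362.

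Mmp3, stromelysin 1, which cuts proteoglycans and activates other MMPs, stood at 50.7, 6.12, 8.75, 12.3 and 34.7 CPM in EIC 1 to EIC 5, and at 2.67, 11.6, 0.243, 3.98 and 20.6 CPM in 16IC 1 to 16IC 5. EIC 1 and EIC 5 led again, but 16IC 5 came next, and the groups overlapped. The log2 difference was -1.52 (SE 0.92, 95% interval -3.57 to 0.52) (edgeR adjusted p = 0.484). Mmp12, the macrophage metalloelastase, stood at 17, 7.9, 13.3, 10.4 and 12.8 CPM in EIC 1 to EIC 5, and at 0.72, 5.23, 21, 1.65 and 7.21 CPM in 16IC 1 to 16IC 5. Its highest tumour was 16IC 3, where macrophage markers were the lowest of all 10 tumours (325 CPM), and the other four 16IC tumours lay below every EIC tumour. Its log2 difference was -0.78 (SE 0.71, 95% interval -2.35 to 0.79) (edgeR adjusted p = 0.635). Like Mmp10, the remaining cluster genes were below the filter. Mmp7, matrilysin, had 25 counts in EIC, 23 of them in EIC 1 alone, and 1 in 16IC. Mmp1a and Mmp1b had 2 counts each in all 10 tumours. Mmp7 and Mmp1b are uncertain, since genes on the opposite strand overlap 11.5% and 10.8% of their exon bases, as is Mmp24 (13.6%), which was below the filter. Mmp11, stromelysin 3, lies on another chromosome and had 9.67 ± 4.51 CPM in the EIC tumours and 5.96 ± 3.52 CPM in the 16IC tumours (SD, n = 5 each) (edgeR adjusted p = 0.556).

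The gelatinases cut denatured collagen and collagen IV of basement membranes, and both of their genes were tested. Mmp9 (chromosome 2, 164940780 to 164955850) stood at 21.5, 1.96, 4.13, 9.88 and 5.3 CPM in EIC 1 to EIC 5, and at 1.15, 3.03, 0.426, 1.44 and 2.76 CPM in 16IC 1 to 16IC 5. EIC 1 was the highest and EIC 2 lay among the 16IC tumours. The log2 difference was -2.27 (SE 0.70, 95% interval -3.82 to -0.73), with an adjusted p of 0.288 by edgeR and 0.0301 by DESeq2. Leaving out EIC 1, EIC 4, 16IC 1, 16IC 3 or 16IC 4 ended DESeq2's call, with adjusted p-values up to 0.213, and without EIC 1 the log2 difference was -1.59. Neutrophils are a known source of MMP9. Their markers, 7 of 8 in the table, with Elane at 0 in 5 tumours and Retnlg in 16IC 4, summed to 24.6 to 86.8 CPM in EIC and 17.7 to 762 CPM in 16IC. Without Cd177, which made up most of the sum in 16IC 1, 16IC 3 and 16IC 4, they summed to 12.5 to 79.2 CPM in EIC, with EIC 1 and EIC 4 the highest, and 3.22 to 19.7 CPM in 16IC. Their part in the Mmp9 difference was not tested.

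Mmp2, the other gelatinase, is activated at the cell surface by the membrane protease MMP14 bound to TIMP2. It stood at 256, 59.9, 62.4, 113 and 104 CPM in EIC 1 to EIC 5, and at 76.8, 116, 22, 57 and 134 CPM in 16IC 1 to 16IC 5. EIC 1 lay far above the others, 16IC 3 was the lowest, and the groups overlapped. The log2 difference was -0.55 (SE 0.51, 95% interval -1.69 to 0.58) (edgeR adjusted p = 0.641). Mmp14 (chromosome 14, 54431612 to 54445364), the membrane collagenase, stood at 446, 196, 349, 534 and 463 CPM in EIC 1 to EIC 5, and at 132, 270.1, 127, 141 and 314 CPM in 16IC 1 to 16IC 5. The 4 other EIC tumours lay above every 16IC tumour, and EIC 2 lay below 16IC 2 and 16IC 5. The means were 398 ± 131 CPM in the EIC tumours and 197 ± 88.6 CPM in the 16IC tumours (SD, n = 5 each) and the log2 difference -1.02 (SE 0.34, 95% interval -1.77 to -0.26), with an adjusted p of 0.292 by edgeR and 0.107 by DESeq2.

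The membrane-type MMPs were the 1 group of proteases in which most tested genes, 3 of 5, had a log2 difference above 0, none with an unadjusted p under 0.05; that of Mmp25 was -0.27 with limma's voom. Mmp15, the most abundant gene of all 50 by FPKM, stood at 242, 303, 302, 408 and 266 CPM in EIC 1 to EIC 5, and at 347, 446, 308, 284 and 493 CPM in 16IC 1 to 16IC 5. The groups overlapped, and its log2 difference of 0.30 (SE 0.20, 95% interval -0.14 to 0.75) was the most narrowly estimated of the 37 (edgeR adjusted p = 0.518). Mmp16 had the largest positive difference, from 36.5 ± 34.9 CPM in the EIC tumours and 82.8 ± 51.1 CPM in the 16IC tumours (SD, n = 5 each), with a log2 difference of 1.18 (SE 0.69, 95% interval -0.34 to 2.71) and an edgeR adjusted p of 0.474. Mmp16 was high in EIC 2 and EIC 3 (53.6 and 89.9 CPM), and lowest in EIC 1 and EIC 5 (8.75 and 10.4 CPM), the 2 tumours in which Mmp13, Mmp3 and Mmp10 were highest. Mmp17 and Mmp25, both anchored by a lipid, had log2 differences of -0.63 and 0.45. Of the remaining MMPs, Mmp19 stood at 13.7, 5.17, 4.55, 16 and 6.14 CPM in EIC 1 to EIC 5, and at 3.03, 7.2, 2.49, 3.98 and 5.04 CPM in 16IC 1 to 16IC 5. Its groups overlapped, and the log2 difference was -1.06 (SE 0.44, 95% interval -2.04 to -0.09) (edgeR adjusted p = 0.356); Tmem198b overlaps 22.3% of its exon bases on the opposite strand, so its counts are uncertain. Mmp23 had 5.09 ± 1.57 CPM in the EIC tumours and 2.81 ± 1.93 CPM in the 16IC tumours (SD, n = 5 each), and Mmp28, epilysin, 2.1 ± 0.71 CPM in the EIC tumours and 2.3 ± 0.247 CPM in the 16IC tumours (SD, n = 5 each), the latter uncertain, with 12% of its exon bases overlapped on the opposite strand.

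All 3 tested TIMPs had lower means in 16IC. Timp1 (ENSMUSG00000001131, plus strand of chromosome X, 20870166 to 20874735), an inhibitor of most secreted MMPs, stood at 50.2, 19.7, 29.5, 77.8 and 19.5 CPM in EIC 1 to EIC 5, and at 4.03, 20.3, 6.75, 8.36 and 11.6 CPM in 16IC 1 to 16IC 5. EIC 4 and EIC 1 were the highest; EIC 2 and EIC 5 lay just below 16IC 2, and the other four 16IC tumours lay below every EIC tumour. The means were 39.4 ± 24.8 CPM in the EIC tumours and 10.2 ± 6.28 CPM in the 16IC tumours (SD, n = 5 each) and the log2 difference -1.94 (SE 0.51, 95% interval -3.07 to -0.82), with an adjusted p of 0.261 by edgeR and 0.0109 by DESeq2. DESeq2's call did not hold when EIC 1, EIC 4, 16IC 3 or 16IC 4 was omitted, with adjusted p-values up to 0.0792.

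Timp2, the inhibitor that also takes part in MMP2 activation, stood at 359.6, 128, 103, 224 and 282 CPM in EIC 1 to EIC 5, and at 82.6, 160.3, 40.9, 49.2 and 279 CPM in 16IC 1 to 16IC 5. 16IC 5 lay above EIC 2, EIC 3 and EIC 4, so the groups overlapped, and the log2 difference was -0.84 (SE 0.55, 95% interval -2.06 to 0.37) (edgeR adjusted p = 0.514). Timp3, which binds to the matrix and also inhibits ADAMTS proteases, stood at 166, 14.3, 48.9, 97 and 99.7 CPM in EIC 1 to EIC 5, and at 42.6, 53, 41, 34.9 and 108 CPM in 16IC 1 to 16IC 5. EIC 2 was the lowest of all 10 tumours and EIC 1 the highest, and the log2 difference was -0.61 (SE 0.55, 95% interval -1.82 to 0.60) (edgeR adjusted p = 0.629); Syn3 overlaps 21.3% of its exon bases on the opposite strand, so its counts are uncertain. Timp4 was below the filter, with 3, 1, 0, 11 and 3 counts in EIC 1 to EIC 5, and 0, 1, 0, 0 and 9 counts in 16IC 1 to 16IC 5. EIC 4 and 16IC 5 held most of these counts.

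Summed over each family, FPKM of the MMPs was 201 ± 59.3 in EIC and 145 ± 46.5 in 16IC (SD, n = 5 each). That of the ADAMTS proteases, without the ADAMTS-like genes, was 68.0 ± 10.4 and 35.6 ± 9.97, and that of the TIMPs 108 ± 50.8 and 48.3 ± 32.4. The ADAMTS sum ran from 59.2 to 81.2 in EIC and from 25.0 to 50.6 in 16IC and did not overlap, whereas the MMP and TIMP sums did. The ADAMTS sum includes Adamts1, with means of 16.0 FPKM in EIC and 3.16 FPKM in 16IC, and Adamts4, with 9.97 and 1.74 FPKM. DESeq2 called both, so the sum is not separate from those calls. Within it, Adamts8, Adamts10 and Adamts17 had higher mean FPKM in 16IC. The ratio of summed TIMP to summed MMP FPKM was 0.520 ± 0.129 in EIC and 0.307 ± 0.109 in 16IC, and 0.747 ± 0.186 and 0.578 ± 0.166 without Mmp15. Both ratios overlapped between groups. The first ran from 0.412 to 0.691 in EIC and from 0.224 to 0.461 in 16IC. Without Mmp15 the ranges were 0.544 to 1.04 and 0.414 to 0.810. These sums describe RNA, not active enzyme, and no test was made on them.

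Tumours differed in how many of the 37 tested genes they headed. An EIC tumour held the highest value for 32 genes, EIC 1 for 12 of them and EIC 4 for 9. A 16IC tumour held the lowest value for 26 genes, 16IC 3 for 15 of them and 16IC 4 for 9. In 16IC 2 no gene was at its highest or lowest. Such counts were not made over all genes tested, so whether they are particular to these 37 is not known. The fibroblast marker sum was 5488 CPM in EIC 1 and 3622 CPM in EIC 4, the highest of EIC, and 305 CPM in 16IC 3 and 897 CPM in 16IC 4, the lowest of 16IC. Adamts4 was highest in EIC 5, where that sum was 2376 CPM, and within 16IC it was highest in 16IC 2 and lowest in 16IC 3, the 16IC tumours with the highest and the lowest sum. Col1a1 and Col3a1 made up most of the fibroblast marker sum, and not all of its genes followed it. Among the 16IC tumours, Dcn and Lum were highest in 16IC 4 (117 and 64.0 CPM), and the other markers in 16IC 2 or 16IC 5. The means of Dcn were 83.9 CPM in EIC and 81.1 CPM in 16IC, and those of Lum 42.2 and 43.6 CPM. The part of fibroblast content in these values was not tested.

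**Figure D4:**
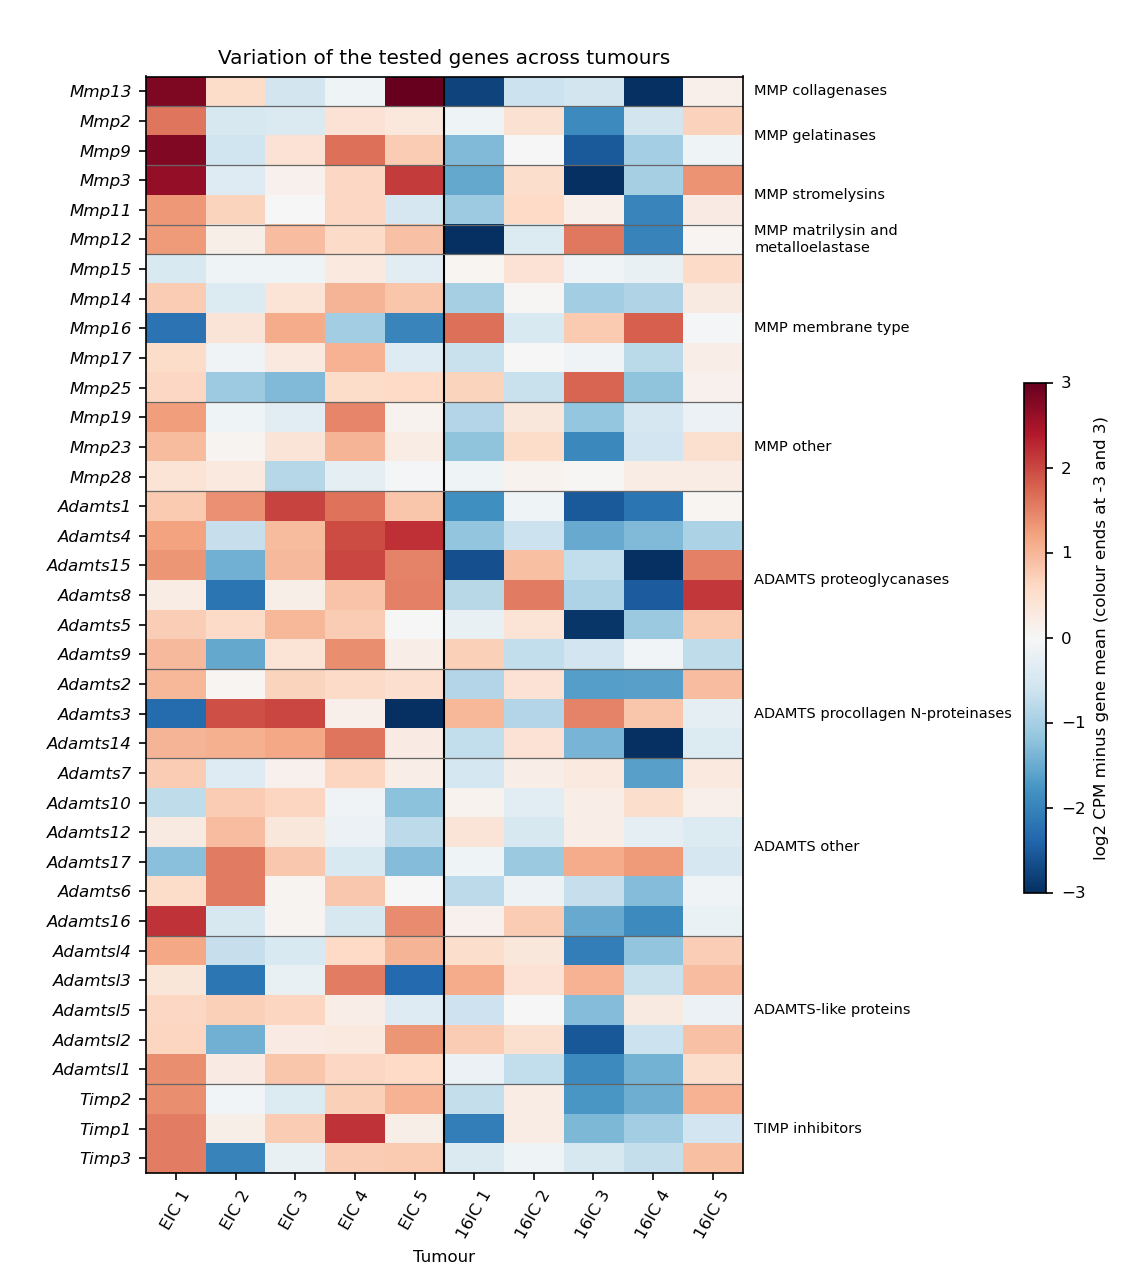
Log2 CPM of each of the 37 tested genes minus its mean over the 10 tumours (colour, ending at -3 and 3), with tumours in columns and genes grouped by role. The columns 16IC 3 and 16IC 4 are mostly blue and EIC 1 and EIC 4 mostly red; Mmp16 and Adamts3 are lowest in EIC 1 and EIC 5, where Mmp13 and Mmp3 are highest.

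Other genes of matrix proteolysis were taken from 7 lists of 62 genes, of which 50 were tested. Of these, 44 were lower and 6 higher in 16IC with a median log2 difference of -0.55. EdgeR called 0 after adjustment and picked 15 at an unadjusted p under 0.05, all lower in 16IC, beside 13.1% of all genes (6.29% as lower). DESeq2 called 6 of 55, all lower, beside 2.11% of all genes (1.27% as lower). The lists were chosen with earlier results of these tumours known.

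The plasminogen activator system, which makes plasmin, an activator of several MMPs, had 4 of 5 tested genes at an unadjusted p under 0.05, all lower in 16IC, as were 6.29% of all genes at that p, and a median log2 difference of -1.06. Plaur, the urokinase receptor, stood at 18.3, 9.92, 8.51, 21.9 and 18.9 CPM in EIC 1 to EIC 5, and at 6.12, 8.44, 4.93, 3.77 and 7.04 CPM in 16IC 1 to 16IC 5. The groups did not overlap, with EIC 3, the lowest EIC tumour, just above 16IC 2. The log2 difference of Plaur was -1.35 (SE 0.33, 95% interval -2.07 to -0.64) with a DESeq2 adjusted p of 0.00962, a call that ended when EIC 1, EIC 4 or 16IC 4 was omitted, and edgeR's was 0.249. Urokinase (Plau) stood at 49.4, 16.2, 25, 55.6 and 28 CPM in EIC 1 to EIC 5, and at 17.1, 22.6, 9.0, 16.3 and 26.7 CPM in 16IC 1 to 16IC 5. The tissue activator Plat stood at 35.1, 10.3, 15.3, 37.9 and 21 CPM in EIC 1 to EIC 5, and at 9.58, 18, 6.39, 6.79 and 16.8 CPM in 16IC 1 to 16IC 5. For both, EIC 1 and EIC 4 stood above the rest and EIC 2 and EIC 3 lay among the 16IC tumours. Serpine2, the inhibitor nexin-1, stood at 338, 59.2, 401, 547 and 578 CPM in EIC 1 to EIC 5, and at 101, 241, 136, 90.8 and 177 CPM in 16IC 1 to 16IC 5, with EIC 2 the lowest of all 10 tumours. The edgeR adjusted p-values of Plau, Plat and Serpine2 were 0.352, 0.349 and 0.322.

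Of the proteins that activate or clear metalloproteinases, 2 of 5 tested had an unadjusted p under 0.05, beside 13.1% of all genes tested. Pcsk6, the proprotein convertase PACE4, stood at 71.2, 46.3, 58.1, 157 and 116 CPM in EIC 1 to EIC 5, and at 9.51, 32.8, 12.4, 7.34 and 29.5 CPM in 16IC 1 to 16IC 5. The groups did not overlap, and EIC 4 and EIC 5 were the highest, as for Adamts4. The log2 difference was -2.29 (SE 0.50, 95% interval -3.40 to -1.18), with an adjusted p of 0.249 by edgeR and 8.78e-04 by DESeq2, which called it whichever tumour was left out. Lrp1, a receptor that takes up proteases and their inhibitors, stood at 252, 131, 363, 166 and 113 CPM in EIC 1 to EIC 5, and at 83.6, 109, 28.6, 43.3 and 122 CPM in 16IC 1 to 16IC 5. Only EIC 5 of the EIC tumours lay within the range of 16IC, and the log2 difference was -1.41 (SE 0.45, 95% interval -2.40 to -0.42) (edgeR adjusted p = 0.29). Furin, another convertase, had a log2 difference of -0.26. None of the 4 tested membrane and plasma inhibitors had an unadjusted p under 0.05. The smallest was that of Papln, papilin, which stood at 161, 1542, 768, 289 and 304 CPM in EIC 1 to EIC 5, and at 1435, 722, 1709, 1223 and 1053 CPM in 16IC 1 to 16IC 5. EIC 2 and EIC 3 lay within the range of 16IC and the other three EIC tumours below it, and the log2 difference was 1.0 (SE 0.56, 95% interval -0.23 to 2.24) (edgeR adjusted p = 0.454). Reck, a membrane-anchored MMP inhibitor, had 18.7 ± 8.31 CPM in the EIC tumours and 22.7 ± 8.0 CPM in the 16IC tumours (SD, n = 5 each).

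Of the procollagen C-proteinases and lysyl oxidases, 4 of 9 tested had an unadjusted p under 0.05, all lower in 16IC. Of all genes tested, 6.29% were lower at that p. Loxl2, an enzyme that crosslinks collagen, stood at 36.6, 20.7, 63.3, 45.3 and 23.8 CPM in EIC 1 to EIC 5, and at 10.9, 24.3, 7.54, 13 and 16.9 CPM in 16IC 1 to 16IC 5. Its relative Loxl4 stood at 7.3, 16.8, 1.74, 9.57 and 2.89 CPM in EIC 1 to EIC 5, and at 2.31, 1.31, 2.07, 2.26 and 1.52 CPM in 16IC 1 to 16IC 5. For Loxl4 the 16IC tumours were close together and EIC 2 stood highest, and for Loxl2 EIC 3 did; both groups overlapped. DESeq2's adjusted p was 0.028 for Loxl2, a call lost in 6 of the 10 fits without a tumour, and 0.0195 for Loxl4, lost in 5; edgeR's were 0.264 and 0.272. Lox stood at 74.7, 64.6, 79.7, 90 and 41.1 CPM in EIC 1 to EIC 5, and at 41.2, 63, 22.1, 20.9 and 59 CPM in 16IC 1 to 16IC 5. Pcolce, an enhancer of procollagen C-proteinase, stood at 63.2, 31.2, 51.2, 65.7 and 31.4 CPM in EIC 1 to EIC 5, and at 32.5, 37.3, 14.7, 30.3 and 35.3 CPM in 16IC 1 to 16IC 5. Both overlapped between groups, with 16IC 3 and 16IC 4 the lowest for each and edgeR adjusted p-values of 0.381 and 0.363.

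Of the ADAM proteases, 1 of 9 tested had an unadjusted p under 0.05, near the share of 13.1% over all genes tested. Adam17, the sheddase of TNF and EGFR ligands, stood at 121, 119, 135, 130.4 and 127 CPM in EIC 1 to EIC 5, and at 77.8, 97.8, 114, 76 and 96.3 CPM in 16IC 1 to 16IC 5. The groups did not overlap, at a small log2 difference of -0.45 (SE 0.13, 95% interval -0.75 to -0.16) (adjusted p = 0.286 by edgeR and 0.0718 by DESeq2). Of 8 tested cysteine cathepsins and related genes, Ctsc and Lgmn had an unadjusted p under 0.05, beside 13.1% of all genes tested. Ctsc, cathepsin C, stood at 230.3, 171, 192, 248 and 204 CPM in EIC 1 to EIC 5, and at 109.7, 142, 99.5, 107 and 192 CPM in 16IC 1 to 16IC 5. Legumain (Lgmn) stood at 196, 134, 145, 183 and 156 CPM in EIC 1 to EIC 5, and at 117, 126, 86.5, 92.3 and 162 CPM in 16IC 1 to 16IC 5. In both, 16IC 5 was the highest of its group and reached into the EIC range; their log2 differences were -0.69 and -0.48. Among the matrix substrates, 2 of 10 tested genes had an unadjusted p under 0.05, Vcan and Fn1, beside 13.1% of all genes tested. Fibronectin (Fn1) stood at 1223, 262, 565, 1038 and 233 CPM in EIC 1 to EIC 5, and at 241, 249.8, 47.6, 99.1 and 289 CPM in 16IC 1 to 16IC 5. EIC 5 and EIC 2 lay among the 16IC tumours, and its log2 difference was -1.84 (SE 0.60, 95% interval -3.17 to -0.52) (adjusted p = 0.29 by edgeR and 0.0534 by DESeq2).

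**Figure D5:**
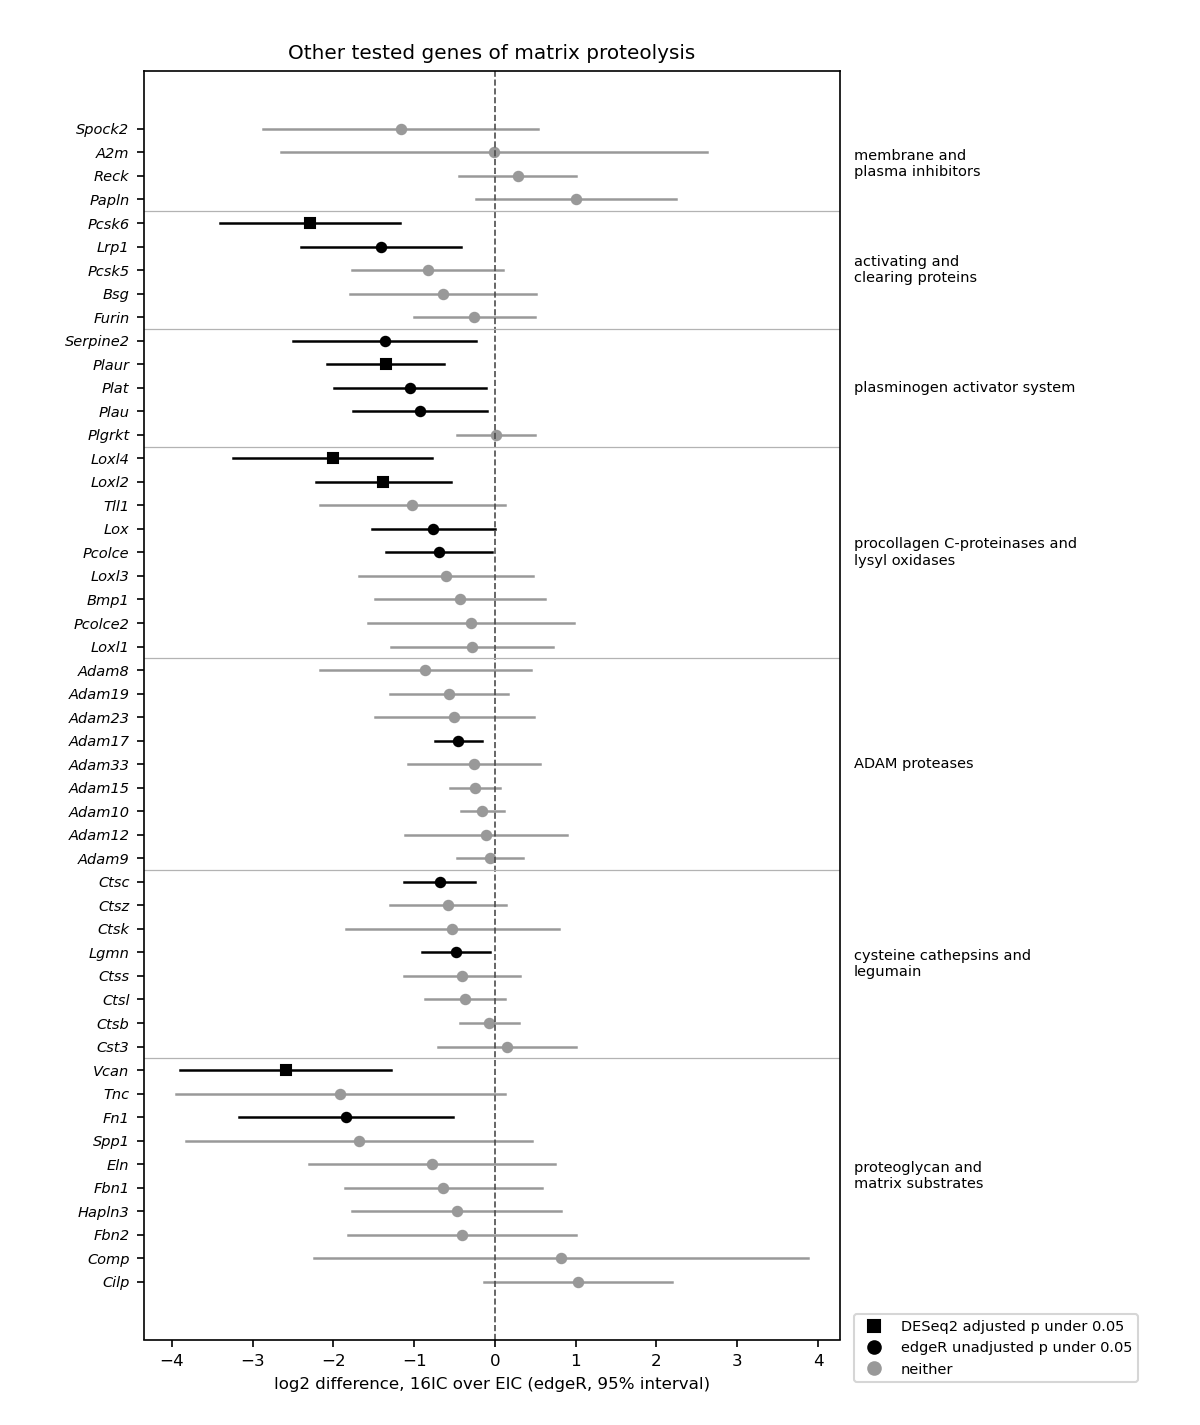
Log2 difference of 16IC over EIC for the 50 tested genes of the 7 other lists of matrix proteolysis, as edgeR estimates with 95% intervals. Black marks an unadjusted edgeR p under 0.05 and a square a DESeq2 adjusted p under 0.05; all 15 genes in black lie left of 0, 4 of them in the plasminogen activator system.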

How the data were processed

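RNA was sequenced from 10 mammary tumours, 5 per genotype, as the genotype labels give them. The labels' protocols name the RNeasy Mini kit for RNA extraction and NEBNext Ultra II for the libraries. The submitters' processing notes list STAR, HTSeq, Trimmomatic, limma and edgeR and the genome GRCm38 (mm10), without versions. Whether counting used strand, the annotation release and the handling of multi-mapping reads are unknown (not given in the sources used here). Members with at least 10% of exon bases overlapped by a gene on the other strand are named as uncertain. The same holds for 5 tested genes of the other lists: Adam15 (20.6%), Ctsb (12.8%), Ctsl (26.8%), Fbn1 (20.1%) and Loxl3 (11.6%). The deposited table gives raw counts per gene and tumour, which the tests use. It also gives the authors' FPKM values, used for levels between genes. Log2 fold changes and p-values that the authors deposited served only as a check: for all 183 genes of the lists, DESeq2 run on the counts made the same calls. The authors' normalized counts, a signal scaled per library, and group means were deposited too and not used.

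Counts were filtered with filterByExpr (minimum count 10), scaled by TMM and fitted with edgeR 4.0.16 (robust quasi-likelihood fit, genotype as the only term, all 10 tumours) in R 4.3.3, with Benjamini-Hochberg adjustment over 14915 genes. DESeq2 1.42.0 and limma 3.58.1 (voom with quality weights) were alternatives, beside other scalings and filters and leaving out each tumour. Each tumour comes from its own animal, so p-values reflect the spread between animals. The code was tested on simulated data.

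Values in every tumour are given for Adamts4, genes with an unadjusted edgeR p under 0.05, genes called by DESeq2, genes whose groups do not overlap, the TIMPs, and the gene with the highest FPKM in each role group. In the other lists, those with an unadjusted p under 0.05 are given, or the gene with the smallest p. Of the other lists, 1 gene is not reported here. Members and lists were chosen with earlier results of these data known. Overlaps come from GENCODE mouse release M21, in which all 50 genes were found, and promoters from RefSeq.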

Additional observations from a re-analysis of the deposited data

Results flagged for a closer look

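Values of 38 named genes were examined in each group of 5 tumours for 1 tumour lying apart from the other four (Dixon's ratio of gap to range above its 95% critical value). The ratio was taken on log2 CPM, with a critical value of 0.71, while the levels given below are CPM. Of 76 gene and group pairs, 3 were set apart, and chance would set apart about 3.8. Timp4 in 16IC 5 was the highest of its group at 0.528 CPM, beside 0 to 0.0595 CPM in the others, a value that rests on 9 counts. Serpine2 in EIC 2 was the lowest of its group at 59.2 CPM, beside 338 to 578 CPM in the others. Pcolce in 16IC 3 was the lowest of its group at 14.7 CPM, beside 30.3 to 37.3 CPM in the others.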

How the results depend on the processing

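The edgeR count of 0 protease and inhibitor genes called after adjustment was 8 with DESeq2 and 0 to 1 when a tumour was left out (1, Adamts4, without EIC 2). It was 0 under the other scalings, filters and fits. DESeq2's own count ran from 2 (without EIC 1) to 10 (without 16IC 5) when a tumour was left out. Over all genes DESeq2 called 217 without EIC 1 and 579 without 16IC 5. That number ran from 178 (without 16IC 4) to 839 (without EIC 2), so it varied between these fits as well. The 10 genes that edgeR picked at an unadjusted p under 0.05 were 16 with voom and quality weights (15 lower, 1 higher). The share of all genes that voom picked at that p was not counted, so the 16 have no background beside them. Of the other genes of matrix proteolysis, edgeR called 0 and DESeq2 6. The split of 29 lower and 8 higher was the same under each scaling, was 30 and 7 with voom, and had 6 to 8 higher genes when a tumour was left out. The log2 difference changed sign in genes far from any call. With voom it was -0.27 for Mmp25, -0.53 for Adamts8 and 1.51 for Adamts3. Leaving out a tumour gave -0.25 to 0.71 for Mmp25, -0.0303 to 0.27 for Mmp28, -0.51 to 0.082 for Adamtsl2, -0.46 to 0.67 for Adamts8, -0.10 to 0.36 for Adamts10, -0.53 to 0.28 for Adamts3 and -0.22 to 0.71 for Adamts17. The cause of these shifts was not tested. No paired analysis was possible because the labels carry no replicate numbers shared by the groups. With 5 tumours a group the spread between tumours limits most values, and counts limit the 13 genes below the filter.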
